A study of Mus musculus with 115 samples.

Results

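The apolipoprotein probes of 2 mouse tissues, liver and inguinal adipose tissue, are described here over genotype and hormone treatment. The genes were chosen with earlier results of these data known, and their probes were taken by gene symbol. Every probe that carries the symbol Apoa1, Apoa2, Apoa4, Apoa5, Apob, Apoc1, Apoc2, Apoc3, Apoe or Apom was included. This gave 11 of the 25697 probes in each tissue's table, for 9 of the 10 genes. Apoc1 and Apoc2 each have 2 probes, and Apob has no value because no probe analysed here carries its symbol. All 11 probes could be tested in liver and 8 of 11 in adipose tissue.

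The study used FCG mice (B6.Cg-TgSry2Ei Srydl1Rlb/ArnoJ), of C57BL/6J background. Their Y chromosome (written Y-) lacks Sry, the gene that starts testis formation, and some of them carry Sry as a transgene. XX and XY- mice lack Sry and form ovaries, and XXSry and XY-Sry mice carry the transgene and form testes. All animals, the controls included, were gonadectomised at 75 days of age and received a capsule at the same time, and tissues were taken 3 weeks later. The capsule was blank (B), held testosterone (T, 5 mM) or held 17beta-estradiol (E, 50 µg). Each of the 4 genotypes under each of the 3 treatments is a group, which gives 12 groups per tissue. Liver had 5 arrays in every group, 60 in all. Adipose tissue had 55 arrays, with 3 in XX B, 4 each in XY-Sry B, XXSry E and XX T, and 5 in each other group. With versus without Sry compares animals that had testes with animals that had ovaries until gonadectomy, and it also compares carriers of the transgene with animals that lack it. The labels do not say that each array of a group is a separate animal, so the p-values measure the spread between these arrays.

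Apolipoproteins are the protein part of the particles that carry lipid in blood. Apoa1 and Apoa2 form the body of high-density lipoprotein, and Apob forms that of very-low-density and low-density lipoprotein. The smaller proteins move between particles and act on lipases and receptors: Apoc2 is the cofactor of lipoprotein lipase, Apoa5 promotes its action, Apoc3 and Apoc1 hinder the clearance of triglyceride-rich particles, and Apoe is the ligand by which remnants are taken up. Hepatocytes are the main source of most of them, whereas Apoe is also made in many other cells, macrophages and adipocytes among them.

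In the array tables Apoa1, Apoa4, Apoa5 and Apoc3 lie on chromosome 9 and Apoc1, Apoc2 and Apoe on chromosome 7, each set forming a known gene cluster, while Apoa2 is on chromosome 1 and Apom on chromosome 17. The upstream sequences of 3 neighbours of the chromosome 9 cluster are shown because these 3 windows could be used here and the profiles of the 3 genes over the liver groups are compared further on. Each is the 250 bases before the gene's start in RefSeq, build GRCm38.p6, on the plus strand, at chr9:46228380-46228629 for Apoa1, chr9:46240594-46240843 for Apoa4 and chr9:46268358-46268607 for Apoa5. Capitals mark the matches to 3 motifs that were searched on both strands: AGGTCA, the hexamer read by estrogen receptors and many other nuclear receptors, AGAACA, the hexamer of androgen and glucocorticoid response elements, and TATAAA, the TATA box.
Apoa1: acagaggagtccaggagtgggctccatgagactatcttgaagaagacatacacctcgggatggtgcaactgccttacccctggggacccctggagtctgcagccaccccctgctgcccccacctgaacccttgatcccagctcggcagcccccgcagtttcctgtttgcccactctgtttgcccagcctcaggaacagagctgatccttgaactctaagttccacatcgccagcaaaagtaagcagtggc
Apoa4: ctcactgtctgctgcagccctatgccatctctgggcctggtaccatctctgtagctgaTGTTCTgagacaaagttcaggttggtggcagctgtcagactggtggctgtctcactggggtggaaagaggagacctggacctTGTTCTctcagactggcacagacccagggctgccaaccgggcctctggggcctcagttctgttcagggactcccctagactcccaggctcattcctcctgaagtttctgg
Apoa5: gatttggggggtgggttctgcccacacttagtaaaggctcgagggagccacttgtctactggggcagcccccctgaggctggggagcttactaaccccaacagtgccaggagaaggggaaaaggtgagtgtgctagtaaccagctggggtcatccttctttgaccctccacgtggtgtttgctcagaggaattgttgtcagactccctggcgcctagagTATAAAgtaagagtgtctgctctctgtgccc
The Apoa1 window held none of the motifs. The Apoa4 window held AGAACA on the opposite strand, read there as TGTTCT, at positions -192 to -187 and -110 to -105 from the gene's start. The Apoa5 window held TATAAA at positions -31 to -26. No matches overlapped. Of 32851 windows of the same length, 14% held AGGTCA, 16.1% AGAACA and 12.4% TATAAA on either strand, so these letters are common and a match is a description of the sequence only.

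The values below are log2 intensities after background correction and quantile normalization within a tissue, and an array's level of a probe is compared only with the same probe in other arrays. The raw median of an array was 124 to 159 in liver and 130 to 230 in adipose tissue, and 31.8% to 41% of probes were detected (detection p under 0.01) in liver and 40.2% to 49% in adipose tissue. All 15 liver markers were detected in all 60 liver arrays, and all 6 adipocyte markers in all 55 adipose arrays, as the tissue labels say. Skeletal muscle, lymph node and mammary epithelium markers were also present in adipose arrays. In liver, replicate 5 of XY-Sry T had Xist at 6.63 (XX arrays 6.35 to 7.40, other XY- and XY-Sry arrays 4.43 to 5.45). The liver array labelled XY- E replicate 5 had the androgen-dependent Hsd3b5 at 12.26. Testosterone arrays had Hsd3b5 at 11.15 to 12.95 and the other estradiol arrays at 4.50 to 11.19, so these ranges overlapped at their ends. The label fields of adipose XX E replicate 1 disagree on the treatment. All 3 were kept under their labels, and results are given with and without them where this changed a call. A probe is called changed when its adjusted p is under 0.05 in limma, a linear model fitted over all tested probes with Benjamini-Hochberg adjustment, and the share of all tested probes called in the same comparison is given beside each count.

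In liver the members of the high-density lipoprotein body and the remnant ligands kept narrow ranges over all 12 groups. The structural protein Apoa1 ranged from 13.84 to 14.74 over the 60 arrays, with a median of 14.45. The second structural protein Apoa2 ranged from 13.76 to 14.63 around 14.41. Apoc3, an inhibitor of lipoprotein lipase, ranged from 14.30 to 14.92 around 14.69. The arrays of each of these 3 probes overlapped between all treatments. Apoa1 was lowest in XX B, at 14.20 ± 0.19 (SD, n = 5), against means of 14.32 to 14.55 in the other groups. Apoe, the remnant ligand, ranged from 13.20 to 14.48 around 13.89. Apoc1 ranged from 13.24 to 14.35 on probe ILMN_2599794 and from 13.69 to 14.77 on probe ILMN_1228469. Apom, which binds sphingosine 1-phosphate in high-density lipoprotein, ranged from 10.90 to 12.25 around 11.87. None of these 7 probes was called for sex chromosomes, Sry, testosterone or estradiol. Apoa1 had an unadjusted p under 0.05 in 3 further contrasts, none of them called in limma: estradiol without Sry (0.17 ± 0.08, adjusted p 0.30), Sry within blank arrays (0.19 ± 0.08, adjusted p 0.35) and testosterone by gonad (-0.24 ± 0.11, adjusted p 0.86).

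**Figure D1:**
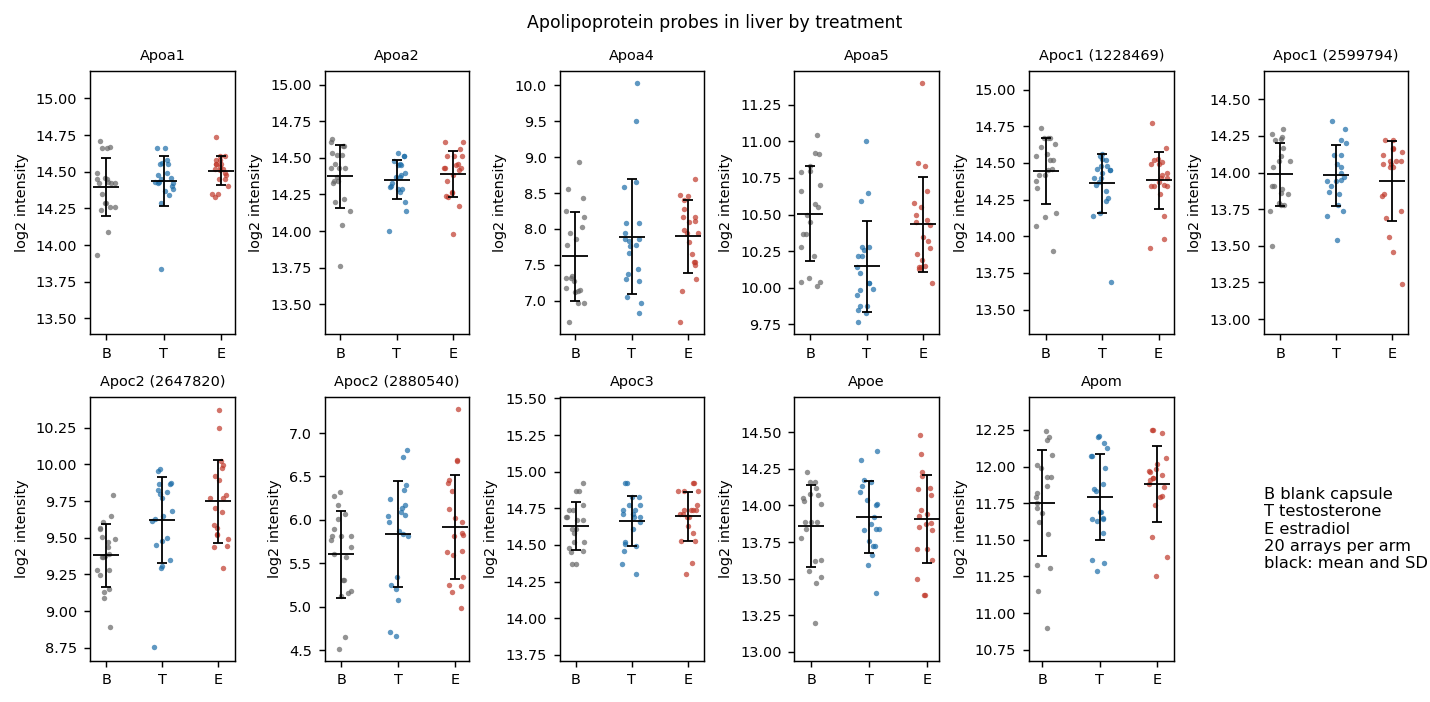
Log2 intensity of each of the 11 apolipoprotein probes in the 60 liver arrays, coloured by treatment, 1 point per array. The probes of Apoa1, Apoa2, Apoc1, Apoc3 and Apoe lie in narrow bands near the top of the scale, Apoa4 spans 6.70 to 10.04, and the treatments overlap for every probe.

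The narrow bands have a measured limit. The Apoc3 probe held ranks 1 to 33 among the 25697 raw intensities of its array in all 60 liver arrays, Apoa1 ranks 6 to 74, Apoa2 ranks 11 to 83, Apoe ranks 21 to 167 and the Apoc1 probes ranks 5 to 91 and 29 to 160. These ranks describe probe brightness, not the abundance of one transcript against another. Quantile normalization gives the same set of values to every array, so a probe that is always among the brightest has little room to move. For Apoa1 the SD within groups was 0.15 after quantile normalization and 0.27 when array medians were set equal instead. For Apoc3 it was 0.18 and 0.31. The rise was not particular to the brightest probes. It was 0.31 and 0.50 for Apom (ranks 404 to 1029), but only 0.22 and 0.25 for the bright Apoc1 probe ILMN_1228469. How much of the rise is due to the lack of room was not tested. With array medians set equal, too, no sex chromosome, Sry, testosterone or estradiol contrast of these bright probes was called. The 95% intervals of the treatment differences for Apoa1 were -0.07 to 0.16 (testosterone) and -0.0041 to 0.23 (estradiol), so changes of the size seen for Apoa5 below lie outside them on the quantile scale.

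Apoa5 was lower under testosterone in liver; it is the member that promotes triglyceride clearance. In blank arrays Apoa5 was at 10.01, 10.52 and 11.04 (lowest, median and highest of 20). In testosterone arrays it was at 9.76, 10.06 and 11 (n = 20), and in estradiol arrays at 10.03, 10.39 and 11.40 (n = 20). Of the 20 testosterone arrays, 17 lay below the blank median and 8 below the lowest blank array, though the arms overlapped. The difference between testosterone and blank was -0.36 ± 0.11 (SE; 95% interval -0.57 to -0.15), a 1.28-fold lower level, with an adjusted p of 0.012 in limma, and it had the same sign in 4 of 4 genotypes. The group means fell from 10.43 ± 0.36 to 10.15 ± 0.29 in XX (SD, n = 5 each) and from 10.60 ± 0.27 to 10.12 ± 0.35 in XY-Sry. They were 10.47 ± 0.31 and 10.03 ± 0.15 in XY-, and 10.53 ± 0.43 and 10.29 ± 0.43 in XXSry. With the slide as a block the Apoa5 difference was -0.20 and its adjusted p 0.15, which ends the call. Within slides 2, 5 and 8, which hold both treatments, it was -0.18, -0.12 and -0.16.

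Estradiol left Apoa5 at -0.07 ± 0.11 against blank, with an interval of -0.29 to 0.14. Testosterone against estradiol gave -0.29 ± 0.11 for Apoa5, in 4 of 4 genotypes, with an adjusted p of 0.052 in limma, and leaving out any 1 of 15 arrays made this a call. The testosterone difference of Apoa5 was the same without Sry (-0.36 ± 0.15) and with Sry (-0.36 ± 0.15). Testosterone called 2 of the 11 members against 19.1% of all tested probes, so the number of members called was near the background.

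Apoc2, the cofactor of lipoprotein lipase, was the other member called, and it was higher under both hormones. Its brighter probe ILMN_2647820 was at 8.89, 9.38 and 9.79 (lowest, median, highest of 20) in blank arrays. It was at 8.75, 9.67 and 9.97 in testosterone arrays and at 9.29, 9.74 and 10.37 in estradiol arrays (n = 20 each). Of the 20 estradiol arrays 19 lay above the blank median, against 16 of the 20 testosterone arrays, and 8 of each lay above the highest blank array. Estradiol minus blank was 0.37 ± 0.09 for Apoc2 (SE; interval 0.19 to 0.55), 1.29-fold, with an adjusted p of 0.0054 in limma and the same sign in 4 of 4 genotypes. Testosterone minus blank was 0.24 ± 0.09 (interval 0.06 to 0.42), with an adjusted p of 0.0495 in limma, in 4 of 4 genotypes. Both hormone contrasts use the same blank arrays, and the direct contrast of the hormones gave -0.13 ± 0.09 with an interval of -0.31 to 0.05.

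Estradiol called 1 of the 11 members against 6.82% of all tested probes. When array medians were set equal in place of quantile normalization, the Apoc2 differences were 0.16 for estradiol (adjusted p 0.40 in limma) and 0.14 for testosterone (adjusted p 0.60), which ends both calls, while the median of all tested probes moved by -0.18 for estradiol. Relative to the median of all tested probes the Apoc2 estradiol difference was 0.34 then and 0.38 under quantile normalization. The same change of scaling took the share of called probes that were higher from 52.1% to 8.55% for estradiol and from 42.8% to 16.5% for testosterone. The testosterone call also ended with the slide as a block (0.26, adjusted p 0.062), without both arrays that go against their labels (0.22, adjusted p 0.081), and without a single array, for 41 of 60 such omissions (highest adjusted p 0.087). Within slides 2, 5 and 8 the testosterone difference of Apoc2 was 0.46, 0.26 and 0.41, and within slides 1 and 3 the estradiol difference was 0.42 and 0.05.

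The second Apoc2 probe, ILMN_2880540, was dim and was detected in 37 of 60 liver arrays. It gave 0.31 ± 0.16 for estradiol and 0.24 ± 0.16 for testosterone, neither of them called. Over the 12 group means the Apoc2 probes correlated at r = 0.68, given as a description of 12 points that share their arrays. Contrasts within animals with or without Sry were added after the data were seen. Without Sry, estradiol called both Apoc2 probes, 2 of 11 members against 2.47% of all tested probes. Probe ILMN_2647820 rose by 0.53 ± 0.13 (adjusted p 0.012 in limma) and probe ILMN_2880540 by 0.86 ± 0.23 (adjusted p 0.028). With array medians set equal they were 0.22 (adjusted p 0.43) and 0.65 (adjusted p 0.10), which ends both calls, and with no filter on dim probes the adjusted p of the second was 0.058. With Sry the same probes stood at 0.21 ± 0.13 and -0.23 ± 0.23, and estradiol called 0 of 11 members there against 1.78% of all tested probes, with 1 member, Apoa4, at an unadjusted p under 0.05 in limma. The difference between the strata was tested by the estradiol by gonad interaction, which gave -0.32 ± 0.18 (adjusted p 0.95 in limma) and -1.08 ± 0.32 (adjusted p 0.24) for the Apoc2 probes. It was thus not shown that estradiol acted differently on Apoc2 in the absence of Sry. Leaving out XY- B replicate 1 or 3, XY- E replicate 2, XX B replicate 3 or 4, or XX E replicate 1 ended the call of the dim probe (highest adjusted p 0.099). Within slide 1 the brighter Apoc2 probe differed by 0.64 and the dim one by 0.32 without Sry, and within slide 3 by -0.08 and 0.65.

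**Figure D2:**
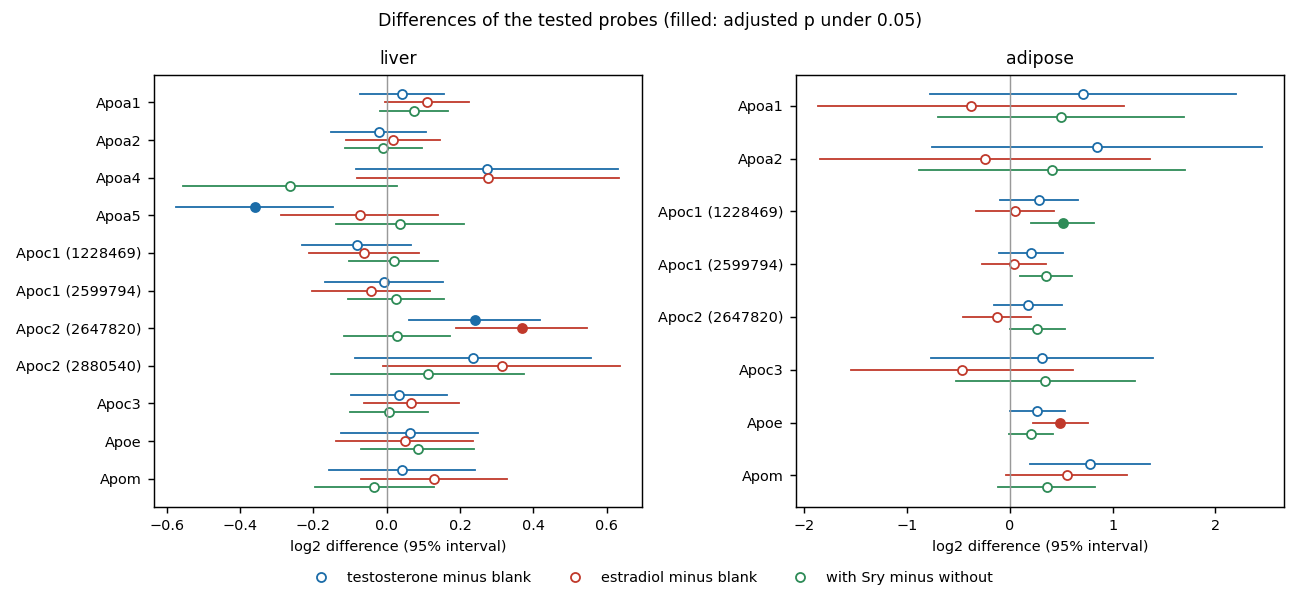
Log2 differences with 95% intervals from limma for the 11 probes tested in liver and the 8 tested in adipose tissue, for testosterone minus blank, estradiol minus blank and groups with Sry minus groups without. Filled points have an adjusted p under 0.05: Apoa5 (-0.36) and Apoc2 probe ILMN_2647820 (0.24 and 0.37) in liver, and Apoc1 probe ILMN_1228469 (0.51) and Apoe (0.49) in adipose tissue.

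Apoa4, a lipid-binding protein of intestine and liver that in mice responds to feeding and liver fat, varied most among the members. Its SD within groups was 0.59, against a median of 0.36 over all tested probes and 0.15 to 0.53 for the other members. Under blank capsules the 10 arrays without Sry and the 10 with Sry did not overlap. Apoa4 was at 7.34, 7.94, 8.26, 8.44 and 8.94 in XX B and at 7.78, 7.86, 8.02, 8.17 and 8.55 in XY- B. It was at 6.71, 6.96, 7.18, 7.27 and 7.32 in XXSry B and at 6.96, 7.12, 7.13, 7.15 and 7.31 in XY-Sry B. Every blank array with Sry was therefore below every blank array without it, whichever sex chromosomes the animal had.

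The contrast of Sry within blank arrays was added after these values were seen. It gave -1.02 ± 0.25 for Apoa4 (SE; interval -1.52 to -0.51), a 2.03-fold lower level with Sry, with an adjusted p of 0.015 in limma, and 1 of 11 members was called against 1.75% of all tested probes. Within the 5 slides that hold blank arrays of both kinds the difference was -1.50, -1.03, -0.54, -0.95 and -1.09. It was called whichever single array was left out (-1.12 to -0.93). With array medians set equal it was -1.07 with an adjusted p of 0.13, which ends the call. The macrophage markers moved with this difference: their mean level was 6.71 to 7.08 in the 10 blank arrays with Sry and 7.36 to 8.26 in the 10 without. Within groups the slope of Apoa4 on that mean was 0.07 ± 0.32 log2 per log2 (adjusted p 0.97 in limma), an error too wide to tell a rise from a fall, and the part of these cells in the difference was not tested. The mean of the 15 liver markers was 12.02 to 12.36 with Sry and 11.89 to 12.42 without.

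Under testosterone the Apoa4 arrays with Sry spread widely. They were at 7.27, 7.66, 7.78, 8.58 and 9.51 in XXSry T and at 6.82, 7.06, 7.87, 8.65 and 10.04 in XY-Sry T. The arrays without Sry were at 6.97, 7.30, 7.45, 7.83 and 8.09 in XX T and at 7.38, 7.76, 7.86, 7.94 and 8.09 in XY- T. Of the 10 testosterone arrays with Sry, 7 lay above the highest blank array with Sry and 0 below the lowest. All 10 testosterone arrays without Sry lay below the median of their blank arrays. The SD was 0.89 in XXSry T and 1.31 in XY-Sry T, against 0.25 and 0.12 in the matching blank groups, whereas limma assumes the same spread in every group.

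The difference of testosterone from blank, also added after the values were seen, was 1.01 ± 0.25 with Sry for Apoa4 (interval 0.51 to 1.52, 2.02-fold, adjusted p 0.0053 in limma) and -0.47 ± 0.25 without Sry (adjusted p 0.30). With Sry 1 of 11 members was called against 9.14% of all tested probes, and without Sry 0 of 11 against 7.06%, where 2 members, Apoa5 and Apoc2, had an unadjusted p under 0.05 in limma. The planned test of their difference, the testosterone by gonad interaction, gave 1.48 ± 0.36 for Apoa4 with an adjusted p of 0.084 in limma, where 0.124% of all tested probes were called, so the call was missed. With the slide as a block the interaction was 1.48 with an adjusted p of 0.0083, which is a call. Leaving out XY-Sry T replicate 1 or 2, XXSry T replicate 1, XXSry E replicate 5 or XX B replicate 4 also made it a call, and over all arrays left out in turn it lay between 1.23 and 1.64 (adjusted p 0.013 to 0.19). Within slides 2, 5 and 8 the testosterone difference with Sry was 0.21, 2.11 and 1.76, so 1 of the 3 slides held little of it. Setting array medians equal gave 0.99 with an adjusted p of 0.094, which ends the call with Sry.

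Under estradiol Apoa4 was at 7.54, 7.81, 8.17, 8.17 and 8.47 in XX E and at 7.49, 7.95, 7.99, 8.10 and 8.40 in XY- E. It was at 6.70, 7.13, 7.30, 7.54 and 8.69 in XXSry E and at 7.65, 7.94, 8.12, 8.27 and 8.46 in XY-Sry E. The XY-Sry E arrays thus lay among those of the ovary-forming genotypes, and 4 of the 5 XXSry E arrays lay below 7.55. Estradiol minus blank was 0.67 ± 0.25 for Apoa4 with Sry (adjusted p 0.20 in limma) and -0.12 ± 0.25 without Sry (adjusted p 0.88). In the contrasts averaged over genotypes, testosterone gave 0.27 ± 0.18, estradiol 0.28 ± 0.18 and Sry -0.26 ± 0.15, none of them called. By group mean, the order of the 12 groups ran from 7.09 ± 0.25 in XXSry B and 7.13 ± 0.12 in XY-Sry B, over 7.47 ± 0.75 in XXSry E, 7.53 ± 0.44 in XX T and 7.80 ± 0.27 in XY- T, to 7 groups between 7.99 and 8.18. Those 7 groups, and the neighbours XXSry E and XX T, differed by less than their SDs.

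**Figure D3:**
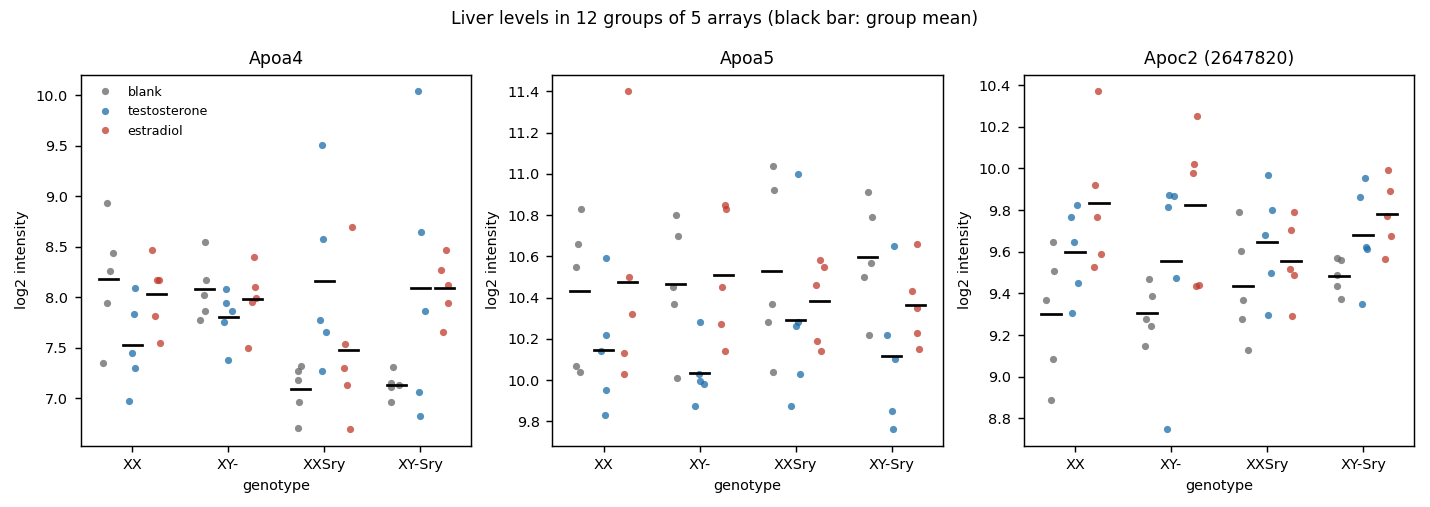
Liver log2 intensity of Apoa4, Apoa5 and Apoc2 (probe ILMN_2647820) in each of the 12 genotype and treatment groups, 5 arrays per group as points and the group mean as a bar. For Apoa4 the blank arrays with Sry (6.71 to 7.32) lie below those without (7.34 to 8.94), and the testosterone arrays with Sry spread up to 10.04.

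No member was called for sex chromosome complement in liver. Of the 11 members 0 were called in limma for XX against XY- genotypes, against 0.186% of all tested probes, and 0 had an unadjusted p under 0.05. Sry over all treatments called 0 of 11 against 3.4%, again with 0 at an unadjusted p under 0.05 in limma. Testosterone against estradiol called 0 of 11 against 18.4%, with Apoa5 alone at an unadjusted p under 0.05. With all arrays kept and no block for the slide, no interaction called a member in limma. The 3 interactions with or between sex chromosomes called 0.0% of all tested probes and had 0 members at an unadjusted p under 0.05, while estradiol by gonad called 0.0795% and had 2 such members, Apoa4 and a probe of Apoc2, and testosterone by gonad had 2, Apoa4 and Apoa1. Sry within testosterone called 0 of 11 (0.212% of all probes) and Sry within estradiol 0 of 11 (2.44%), each with 1 Apoc2 probe at an unadjusted p under 0.05 in limma. Over the tested members the median difference was 0.04 for testosterone and 0.07 for estradiol, against 0.0031 and -0.016 over all tested probes.

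The genes of a cluster did not share one profile over the 12 liver group means. On chromosome 9 the correlations, given as descriptions of 12 points, were -0.44 for Apoa1 with Apoa4, -0.02 for Apoa1 with Apoa5, -0.27 for Apoa4 with Apoa5 and 0.27 for Apoa4 with Apoc3. The promoter windows printed above belong to the first 3 of these genes. On chromosome 7 Apoe correlated at 0.07 and -0.14 with the Apoc1 probes and at -0.06 and 0.23 with the Apoc2 probes. The Apoc1 probes, which read the same gene, correlated at only 0.28, so a low value between bright members says little. Among the tested probes outside the members, the profile most like that of Apoa5 was that of Zfp608 (r = 0.94 over 12 group means), followed by 6030443O07Rik (0.94). The profile most like Apoc2 probe ILMN_2647820 was that of Stat3, a transcription factor of cytokine signalling (0.94), followed by Tra1 (0.92). Members that were not called had best matches about as high, 0.95 for Apoa2 with Inpp5a and 0.92 for Apoc3 with Plscr2. Each value is the highest of a search over the tested probes, so it does not set these genes apart.

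The other genes of the lipoprotein pathway were counted from fixed lists, a gene being called when any of its tested probes was. In liver the counts stand against 19.1% of all tested probes called for testosterone and 6.82% for estradiol, and genes with several probes have more chances to be called. Under testosterone 5 of 10 tested lipoprotein receptor genes fell and 0 rose in liver, with a list median of -0.24 against 0.0031 over all tested probes. The very-low-density lipoprotein receptor Vldlr fell by 2.44 ± 0.16 on its brightest-changing probe. Its other tested probes gave -2.15 and -1.86. The fatty acid transporter Cd36 fell by 0.36, the lipolysis-stimulated receptor Lsr by 0.30 on 1 of its 2 tested probes, and Stab1 by 0.24. Under estradiol Vldlr was the single receptor gene called of 10, and it fell by 1.20, 1.08 and 0.89.

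Of 16 tested genes of lipoprotein assembly and lipid transfer, 4 fell and 1 rose under testosterone in liver (list median -0.06, against 19.1% of all tested probes called). Tm6sf2, which helps to load lipid onto secreted particles, fell by 1.15 ± 0.11, the phospholipid transfer protein Pltp by 0.92 and 0.70, and the triglyceride synthase Dgat2 by 0.35. The sorting receptor Sort1 rose by 0.82 and 0.78 on 2 of its 4 tested probes, and its other probes stood at 0.32 and 0.01. Under estradiol averaged over genotypes 1 of these 16 genes rose, Apobec1, the enzyme that edits the Apob transcript, by 0.42 ± 0.11. Estradiol by gonad called Pltp on 1 probe (1.35 ± 0.28, adjusted p 0.023 in limma), against 0.0795% of all probes. Its other probe gave 0.95 (adjusted p 0.625). In contrasts added after the data were seen, Pltp gave -1.435 and -1.218 for testosterone without Sry, both called (7.06% of all probes). For estradiol with Sry it gave 0.93, called, and 0.58, not called (1.78%). For Sry within blank arrays it gave -1.05 and -0.98, both called (1.75%).

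Of 10 tested lipases and regulators, Lpl, which Apoc2 activates, rose by 0.48 ± 0.14 under testosterone and Ces1g fell by 0.63 ± 0.15. For estradiol averaged over genotypes 0 of 10 were called in limma. Estradiol by gonad called Lpl (-1.28 ± 0.28, adjusted p 0.045 in limma), against 0.0795% of all tested probes. In contrasts added after the data were seen, estradiol without Sry gave 0.94 ± 0.20 for Lpl (adjusted p 0.0047 in limma, 2.47% of all tested probes called). Sry within estradiol gave -1.01 ± 0.20 (adjusted p 0.00084 in limma, 2.44% called). The list median was -0.14 for testosterone and -0.17 for estradiol. Of 10 tested other apolipoproteins and associated proteins, Saa4 rose by 0.49 under testosterone, the Apob receptor Apobr fell by 0.41 and Apoh by 0.20. Under estradiol Saa3 rose by 1.72 ± 0.47, Apon by 0.42 and Apof by 0.31, and 0 fell. Saa3 is an acute-phase protein that macrophages also make. In liver 5 of 7 macrophage genes rose with estradiol, against 6.82% of all tested probes called. The part of these cells in the Saa3 difference was not tested. Estradiol without Sry gave 2.94 ± 0.66 for Saa3 (adjusted p 0.0074 in limma, 2.47% of all tested probes called). For Sry within estradiol Saa3 stood at -2.83 ± 0.66 (adjusted p 0.0064 in limma, 2.44% called). Both contrasts were added after the data were seen. The mean level of the macrophage markers was 7.10 to 8.60 in estradiol and 6.71 to 8.26 in blank arrays. No member was called for its slope on that mean in limma (0 of 11, against 1.03% of all tested probes), Apoa1 being nearest at -0.29 ± 0.10 with an adjusted p of 0.17.

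Of 21 tested transcription factors and receptors that act on these genes, 7 fell and 1 rose under testosterone in liver (list median -0.06, against 19.1% of all tested probes called). The estrogen receptor Esr1 fell by 1.22 ± 0.14, Srebf1, a regulator of lipid synthesis, by 0.74 and the coactivator Ppargc1a by 0.49. Under estradiol 2 of 21 fell, Ppara by 0.63 ± 0.15 and Nr5a2 by 0.24 on 1 of its tested probes. The Sry contrast called Apobr alone in these lists (-0.37).

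In adipose tissue Apoe, both Apoc1 probes and Apoc3 were detected in every array. Apoa1, Apoa2 and Apoc3 followed liver transcripts, and the other members were dim or detected in part of the arrays. Liver markers were used to describe this. Of 15 such genes 13 were tested, none of them an apolipoprotein, and their mean level ranged from 4.90 to 12.98 over the 55 arrays with a median of 5.63. In 9 arrays at most 1 marker was detected, Kng1 wherever there was 1, in 43 arrays 2 to 12 were detected, and in 3 arrays all 13. The 3 arrays were XXSry B replicate 1 (9.98), XX T replicate 4 (10.16) and XY-Sry T replicate 1 (12.98). Alb, the most liver-defining of the markers, was detected in 5 of 55 arrays. The high values were not spread evenly over slides, since the 8 arrays of slide 5 all lay at 5.76 or above. How liver transcripts came to these arrays was not tested.

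Apoe was read without them. In the 9 arrays with at most 1 liver marker Apoe was at 12.90, 13.31 and 13.80 (lowest, median, highest), and in the 3 arrays with every marker its median was 13.16. The 9 arrays include estradiol arrays and the 3 do not, so these sets differ in treatment as well. The slope of Apoe on the liver marker mean was 0.05 ± 0.04 log2 per log2 (adjusted p 0.60 in limma), and -0.06 without the 3 arrays. Both Apoc1 probes were also detected in all 55 arrays, with medians of 12.78 and 11.38 in the 9 arrays, against 13.40 and 12.61 in the 3. The Apoc1 slopes, 0.16 ± 0.04 and 0.20 ± 0.05, were called (adjusted p 0.0038 and 0.0030 in limma). They rested on 1 array: without XY-Sry T replicate 1 they were 0.07 and 0.09 and not called (highest adjusted p 0.68), and without all 3 arrays 0.017 and 0.0014. The brighter Apoc2 probe ILMN_2647820 was detected in 8 of the 9 arrays, at a median of 6.11, and its slope of 0.13 ± 0.04 was not called (adjusted p 0.11).

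Apoa1, Apoa2 and Apoc3 followed the liver markers. Apoa1 was detected in 1 of the 9 arrays with at most 1 liver marker, at a median of 5.34, against 12.61 in the 3 arrays with all of them, and its slope was 1.37 ± 0.06 (adjusted p 2.3e-23 in limma). Apoa2 was detected in 6 of the 9, at a median of 6.64 against 14.09, with a slope of 1.40 ± 0.10. Within groups the correlation with the marker mean was 0.96 for Apoa1, 0.91 for Apoa2 and 0.92 for Apoc3 over the 55 arrays, given as a description. All 3 slopes remained called without the 3 arrays with every marker (1.70, 2.03 and 1.0).

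Apoc3 differed in one way, since it was detected in all 9 of the arrays with at most 1 liver marker, at 6.58 to 7.93. In XY- E replicate 3 it stood at 10.65 although the marker mean there was 5.27. Apom, detected in 6 of the 9, had a slope of 0.41 ± 0.06, which was 0.12 and no longer called without the 3 arrays. In all, 6 of 8 members had a called slope against 3.01% of all tested probes, and 3 of 8 without the 3 arrays. Apoa4, Apoa5 and the dim Apoc2 probe were detected in 1 adipose array only, XY-Sry T replicate 1, the array with the highest marker mean, at 7.08, 9.13 and 6.09.

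**Figure D4:**
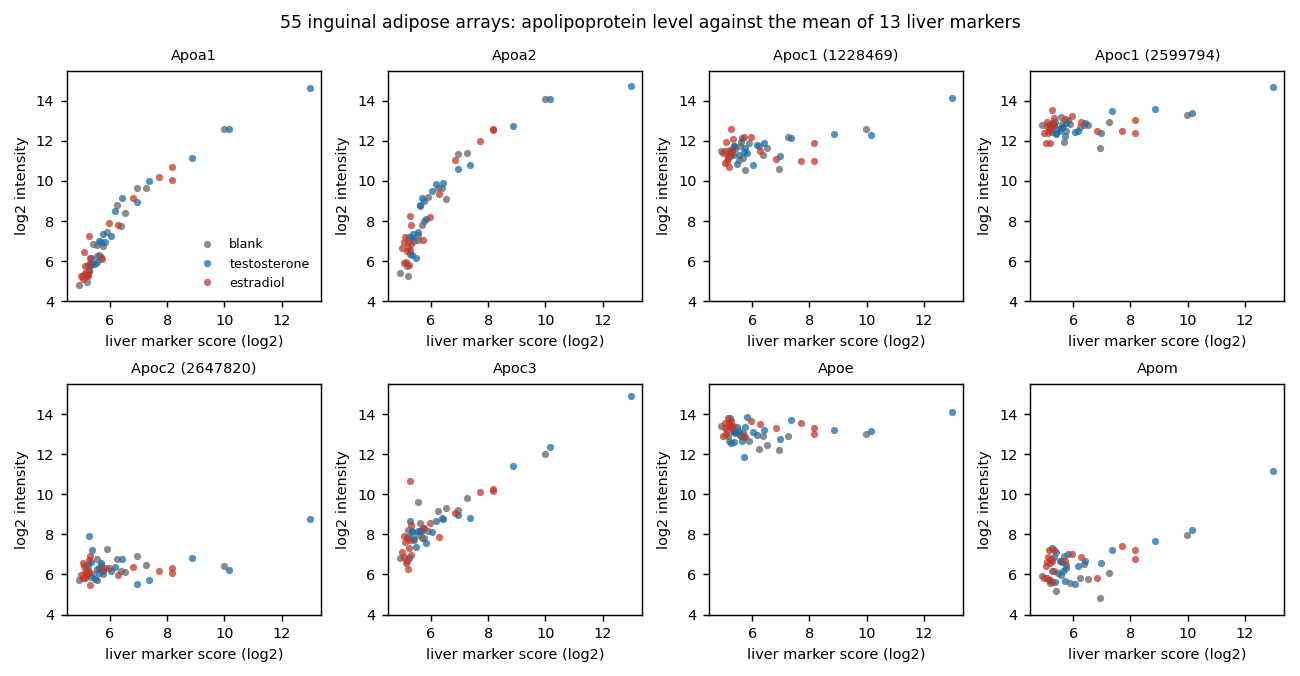
Level of each of the 8 tested apolipoprotein probes (log2 intensity) against the mean log2 intensity of 13 liver markers in the 55 inguinal adipose arrays, 1 point per array coloured by treatment. Apoa1, Apoa2 and Apoc3 rise along the whole axis, whereas Apoe stays between 11.87 and 14.08 and both Apoc1 probes are high at the lowest marker means.

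The treatment differences of the members that followed liver markers had wide intervals in adipose tissue. Testosterone minus blank was 0.71 ± 0.74 for Apoa1 and 0.85 ± 0.80 for Apoa2, with intervals of -0.77 to 2.20 and -0.75 to 2.46. The marker mean was 4.90 to 9.98 in blank, 5.24 to 12.98 in testosterone and 4.97 to 8.18 in estradiol arrays. Testosterone called 0 of 8 members in limma against 4.75% of all tested probes, with Apom alone at an unadjusted p under 0.05 (0.78 ± 0.29, adjusted p 0.12). In animals with Sry alone, without the 3 arrays, testosterone called Apom, and estradiol then called Apom both there and over all genotypes. In these fits 500, 1375 and 2928 of the 14636 tested probes were called, in the same order. Both steps were chosen after the data were seen.

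Apoe was higher under estradiol in adipose tissue. It was at 12.21, 12.91 and 13.41 in blank arrays (lowest, median and highest of 17), at 11.87, 13.16 and 14.08 in testosterone arrays (n = 19) and at 12.89, 13.34 and 13.78 in estradiol arrays (n = 19). Of the 19 estradiol arrays 17 lay above the blank median and 8 above the highest blank array. Estradiol minus blank was 0.49 ± 0.13 for Apoe (SE; interval 0.22 to 0.76), 1.40-fold, with an adjusted p of 0.0055 in limma and the same sign in 4 of 4 genotypes. This was 1 of 8 members called against 20.5% of all tested probes, so the number of members called was near the background. Testosterone minus blank was 0.27 ± 0.13 for Apoe (interval -0.0018 to 0.53, adjusted p 0.27), and testosterone against estradiol -0.22 (adjusted p 0.22), so a difference between the hormones was not shown. Testosterone against estradiol called 0 of 8 members in limma against 17.3%, with 0 at an unadjusted p under 0.05.

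By genotype Apoe was at 12.46, 12.87 and 12.91 in XX B and at 12.90, 13.01, 13.22, 13.47 and 13.54 in XX E. It was at 12.21, 12.26, 12.67, 13.01 and 13.06 in XY- B and at 13.31, 13.32, 13.34, 13.53 and 13.67 in XY- E, where the groups did not overlap. With Sry the overlap was larger, with XXSry means of 12.97 ± 0.28 and 13.26 ± 0.26 (SD, n = 5 and 4) and XY-Sry means of 13.08 ± 0.23 and 13.48 ± 0.29 (n = 4 and 5). Estradiol minus blank was 0.64 ± 0.19 for Apoe without Sry (1 of 8 members called against 10.2% of all tested probes, adjusted p 0.021 in limma), and without XX B replicate 1 this call ended (highest adjusted p 0.094). It also ended with array medians set equal (0.59, adjusted p 0.23) and with the mean of the macrophage markers as a covariate (0.27, adjusted p 0.66). That covariate took all tested probes called for estradiol without Sry from 1492 to 395. The estradiol difference of Apoe was 0.34 ± 0.19 with Sry, where 0 of 8 members were called against 10.1% and 0 had an unadjusted p under 0.05. The estradiol by gonad interaction called 0 of 8 members in limma against 0.813%, with 0 at an unadjusted p under 0.05, so the strata were not shown to differ.

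Macrophage markers moved with the Apoe difference. All 6 tested macrophage genes rose with estradiol (median of their probes 1.09, against -0.02 over all tested probes), and their mean was 7.62 to 9.73 in blank, 8.10 to 9.92 in testosterone and 8.81 to 10.34 in estradiol arrays. All 6 were detected in all 55 arrays. Within groups Apoe rose by 0.34 ± 0.12 per unit of that mean (adjusted p 0.037 in limma), the only member of 8 with a called slope, against 23.8% of all tested probes. This call ended without any 1 of 8 arrays, namely XY-Sry B replicate 3, XY-Sry T replicate 5, XY-Sry E replicate 2, XXSry E replicate 2, XY- B replicate 3, XY- T replicates 2 and 4 and XX T replicate 2 (highest adjusted p 0.13). With the macrophage mean as a covariate the estradiol difference of Apoe was 0.11 ± 0.18 with an adjusted p of 0.76 in limma, which ends the call. The same covariate took all tested probes called for estradiol from 3003 to 718, so the loss of a call was not particular to Apoe. In bulk tissue more cells that make Apoe and more Apoe transcript per cell cannot be told apart. The call also ended with the slide as a block (0.32, adjusted p 0.081) and with array medians set equal (0.45, adjusted p 0.11), and within slides 2 and 8 the difference was 0.16 and 0.28. It held with the liver marker mean as a covariate (0.50), without the 3 liver-rich arrays (0.49) and with XX E replicate 1 taken as testosterone (0.50).

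Apoc1 was higher with Sry in adipose tissue. Its probe ILMN_1228469 was at 10.55, 11.27 and 12.58 (lowest, median and highest of 27) without Sry and at 11, 11.78 and 14.15 with Sry (n = 28). Of the 28 arrays with Sry 25 lay above the median of those without, and the arms overlapped. The difference was 0.51 ± 0.15 (SE; interval 0.21 to 0.82), 1.43-fold, with an adjusted p of 0.026 in limma and the same sign in 6 of 6 combinations of treatment and sex chromosomes. The other Apoc1 probe gave 0.35 ± 0.13 with the same sign in 6 of 6 and was not called (adjusted p 0.079). This was 1 of 8 members called against 7.34% of all tested probes. Within each of the 8 slides the difference of probe ILMN_1228469 was above 0, from 0.11 to 1.60. The call was lost without 1 array, XX B replicate 2 (highest adjusted p 0.068), and it held without the 3 liver-rich arrays (0.44, adjusted p 0.015).

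**Figure D5:**
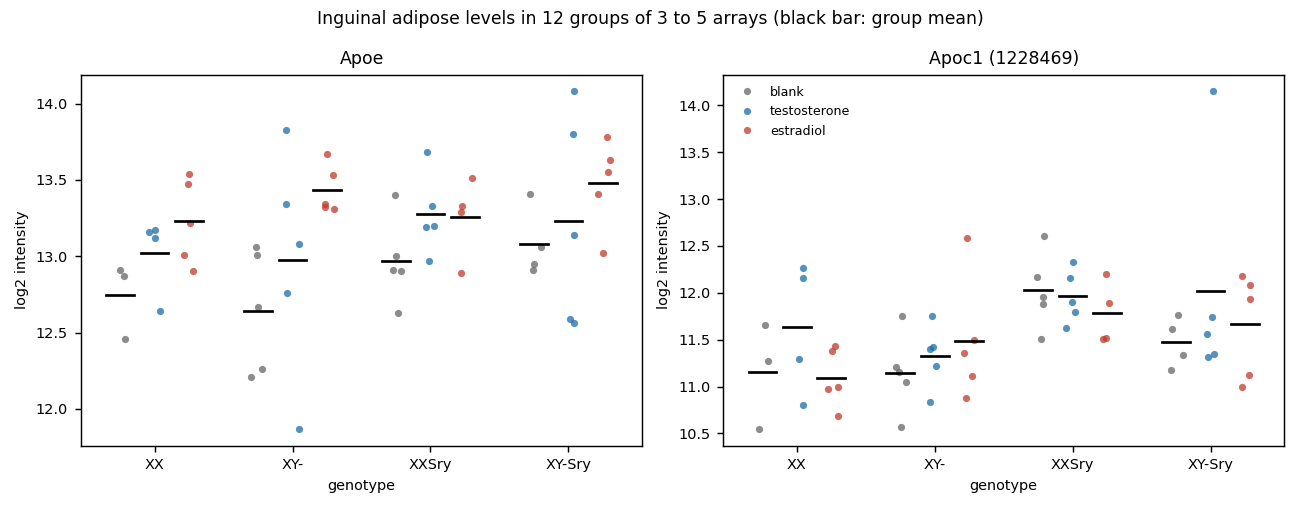
Log2 intensity of Apoe and of Apoc1 (probe ILMN_1228469) in the 12 inguinal adipose groups of 3 to 5 arrays, 1 point per array and a bar at the group mean. Apoe means are highest under estradiol in XX, XY- and XY-Sry, and Apoc1 means are higher in the genotypes with Sry under each treatment, with XY-Sry T replicate 1 at 14.15.

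Other cell types moved with Sry in the same arrays. The 4 tested mammary epithelium genes all fell (median -3.75), and their mean was 5.29 to 9.85 with Sry and 9.50 to 12.26 without, while 3 of 6 adipocyte genes rose. The part of these cells in the Apoc1 difference was not tested. Sry within blank, testosterone and estradiol called 0 of 8 members each in limma, against 1.8%, 3.42% and 4.4% of all tested probes, with 1, 2 and 0 members at an unadjusted p under 0.05. Testosterone with Sry and without Sry called 0 of 8 against 3.55% and 0.417%, with 2 and 0 such members. For sex chromosomes limma called 0 of 8 against 0.137% with 1 member, Apoc2, at an unadjusted p under 0.05. The other interactions called 0 of 8 with 0 such members, against 0.0% of all tested probes for the 3 with sex chromosomes and 0.0137% for testosterone by gonad.

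In adipose tissue the same lists are set against 20.5% of all tested probes called for estradiol, and the counts below are not read as a change of the lists. Of 16 tested assembly and transfer genes 2 rose and 3 fell (list median -0.05, against -0.02 over all tested probes). Pltp rose by 1.38 ± 0.29 and 1.09 ± 0.17, and Apobec1 by 0.49, whereas Sort1 fell by 0.82 on its most changed probe and Dgat1 by 0.53. Among 6 tested lipase genes Gpihbp1, which anchors lipoprotein lipase to capillaries, fell by 1.22 ± 0.15 and Ces1d by 0.33. Of 10 receptors, Lsr rose by 0.89 and the remnant receptor Lrp1 by 0.48 ± 0.13. Among 9 other apolipoproteins, Saa3 rose by 1.21 ± 0.37 and Apod by 0.73 ± 0.22. Of 19 transcription factors 4 fell, among them Ppargc1a by 1.20, Esr1 by 0.83 and Nr1d1 by 0.69 and 0.60, and Mlxipl rose by 0.46.

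Against 7.34% of all tested probes called for Sry, the paraoxonases Pon1 (0.89 ± 0.21) and Pon3 (0.53 and 0.48 on 2 of 3 probes), which travel on high-density lipoprotein, were higher with Sry in adipose tissue, as was Sort1 on 1 of its 4 probes (0.41). Lsr fell by 1.30 ± 0.20, and Foxa1, a factor of epithelial cells, fell by 3.92 ± 0.25. Cebpa (0.69) and Nr1h3 (0.51 and 0.37), the liver X receptor alpha that acts on the Apoe and Apoc1 genes, were higher. Under testosterone, where 4.75% of all tested probes were called, Pon1 rose by 1.09 ± 0.26, Nr1h4 by 1.06 and Stab1 by 0.40, and Angptl8 fell by 1.12 and Esr1 by 0.77. Pon1, Pon3 and Nr1h4 are also expressed in liver, and the liver markers had median differences of 0.60 for testosterone and 0.41 for Sry. Their part in these differences was not tested. No list gene was called for sex chromosomes in adipose tissue.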

How the data were processed

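RNA of 60 livers and 55 inguinal adipose samples was read on Illumina BeadChips. Each array contributed, per the file headers, a linear bead-averaged intensity and a detection p-value for every probe. The submitters' processing notes name lumi, while array medians still differed in the deposited intensity values, so these were taken as not normalized. The 115 columns of bead standard errors were not used. Each tissue was processed alone in limma 3.58.1 (R 4.3.3): normexp background correction with negative controls inferred from detection p-values, 16 added, quantile normalization and log2. A probe was tested when detected (p under 0.01) in 5 or more livers or 3 or more adipose arrays, the size of the smallest group, which left 11317 and 14636 probes. Adding 16 understates differences of dim probes.

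Group means were fitted with lmFit and eBayes, contrasts weighted groups equally, and p-values were adjusted over all tested probes within each contrast. Scores are means of marker genes, and slopes add a score to the model. Every probe of the members is reported, with up to 4 called genes of each pathway list, those with the largest differences. One gene of these lists is not reported here. The members and lists were chosen with earlier results of these data known. Contrasts of Sry within a treatment and of hormones with or without Sry were added after seeing the data, as was leaving out the 3 liver-rich adipose arrays. The slide is the BeadChip named in the labels, numbered 1 to 8 per tissue, and no slide held all treatments. Fits were tested on simulated data. The number of arrays limits the precision. Tables were joined in pandas 2.3.3 (Python 3.11.15). Promoters are from RefSeq (GRCm38.p6), where 3 windows could be used.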

Additional observations from a re-analysis of the deposited data

Results flagged for a closer look

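Dixon's test was run on 220 combinations of a tested probe and a group of 4 or 5 arrays. It flags about 1 in 20 by chance when they are independent, but these combinations share arrays. In 20 of the 220 the highest or lowest array lay far from the rest. Adipose array XY-Sry T replicate 1, which had the highest liver marker mean, accounts for 6 of these 20. There Apoa1 was at 14.64 (nearest array of the group 5.96), Apoa2 at 14.75, Apoc3 at 14.91, Apom at 11.14, and Apoc1 at 14.15 (probe ILMN_1228469) and 14.70 (probe ILMN_2599794). Adipose XX E replicate 1, whose label fields disagree, held Apoa1 at 10.67 (nearest 5.42), Apoa2 at 12.59 and Apoc3 at 10.28. Apoc3 also stood apart at 12.34 in XX T replicate 4, at 11.40 in XXSry T replicate 5 and at 9.60 in XY-Sry B replicate 2, and Apoe was low at 12.64 in XX T replicate 2. Of the 13 adipose values 12 were thus high, and the exception was Apoe.

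In liver the distances were small for all but the dim Apoc2 probe. Apoc1 probe ILMN_1228469 was low at 13.90 in XX B replicate 5, at 14.16 in XX T replicate 5 and at 13.69 in XXSry T replicate 4, and Apoc1 probe ILMN_2599794 at 13.56 in XY-Sry E replicate 3. Apoc3 was at 14.30 in XX E replicate 1 and Apom at 12.25 in XY-Sry E replicate 2. The dim Apoc2 probe was at 5.17 in XX E replicate 3 (nearest array of the group 6.34). With all arrays kept and no block for the slide, no treatment effect on a member was called different with and without Sry. The same held between sex chromosome complements. Leaving out any 1 of 5 arrays made the difference of the liver Apoa4 testosterone effect with and without Sry a call (lowest adjusted p 0.013 in limma). With the slide as a block, the testosterone effect on liver Apoa4 was called different with and without Sry (1.48, adjusted p 0.0083 in limma; 1.47 and 0.013 without both arrays against their labels).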

How the results depend on the processing

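Counts of member probes called kept within 1.5 times in 291 of 325 pairs of contrast or slope and setting, without single-array omissions. Pairs in which a count of 0 stayed 0 are among the 291, so this number says little about the calls made. Of 272 pairs of single-probe value and setting, 234 kept direction and stayed called or not called. In liver, testosterone called 1 with array medians set equal, with no filter or without both arrays against their labels, and 0 with the slide as a block, alone or without those arrays. With medians set equal, estradiol, Sry within blank, testosterone with Sry and estradiol without Sry each called 0. Estradiol without Sry called 1 with no filter or only probes detected in every array, and testosterone with Sry 2 with array weights. Testosterone against estradiol called 1 (Apoa5) with no background correction, an offset of 50, only probes detected in every array, array weights, or both arrays left out, and testosterone by gonad called 1 (Apoa4) with the slide as a block, alone or without those arrays. In adipose tissue, estradiol called 0 with medians set equal, the slide as a block or the macrophage covariate, and 2 with the liver covariate or without the 3 liver-rich arrays. Estradiol without Sry called 0 with medians set equal or the macrophage covariate, Sry called 2 with the macrophage covariate, estradiol with Sry 2 with array weights and 1 without the 3 arrays, and testosterone with Sry 1 without them. Array weights took all tested probes called for estradiol with Sry from 1484 to 2966. Slopes on the liver markers called 3 without the 3 arrays, and slopes on macrophage markers 2 with medians set equal or without the 3 arrays and 3 with all 3 scores together. Signs turned for Apoe under the macrophage covariate (testosterone against estradiol 0.025, estradiol with Sry -0.042) and for its liver slope without the 3 arrays (-0.055), and for macrophage slopes of Apoc1 (0.076) and Apoc3 (0.094) with medians set equal and of Apoa1 with the slide as a block (-0.33) or all 3 scores (-0.24), none of them called; the cause was not tested. With each array left out in turn the counts ranged from 1 to 2 for liver testosterone, estradiol without Sry and testosterone with Sry, from 0 to 1 for liver testosterone against estradiol, testosterone by gonad and testosterone without Sry, and for adipose estradiol without Sry, testosterone with Sry and the macrophage slope, and from 0 to 2 for adipose Sry. The Apoe liver slope ranged from -0.017 to 0.063 and the Apoa1 macrophage slope from -0.16 to 0.24. No paired analysis was possible because the labels give no replicate numbers shared by groups. The slide, which holds arrays of several groups, was fitted as a block instead, with the effects given above and beside the results.

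Dim probes limit the text: Apoc2 probe ILMN_2880540 in liver, and Apoa4 and Apoa5 in adipose tissue, lay near background in most arrays.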
